A study of Caenorhabditis elegans with 2 samples.

Results

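The tRNA genes on the X chromosome of Caenorhabditis elegans were examined for occupancy by HMBX-1, a homeobox protein related to human HMBOX1. All genes of biotype tRNA on the X in the Ensembl gene models were taken, which gave 276 members among 612 nuclear tRNA genes; the other 336 lie on the autosomes. Their number and position do not depend on the ChIP-seq data, and members without any called region were kept. Occupancy came from chromatin immunoprecipitation with sequencing (ChIP-seq) in whole early embryos of strain OP656, which carries the allele unc-119(tm4063) on chromosome III and the transgene wgIs656. This transgene encodes HMBX-1 with GFP and FLAG fused to its C terminus. Embryos of mixed sex were collected 45 min after bleach synchronization, and the precipitation used an anti-GFP antibody by the sample description, although the antibody field names hmbx-1. The 2 biological replicates form 1 group and share 1 control file, so no condition was contrasted and no untagged strain was analysed here. Signals come from the transgenic protein in all cells of the embryo together, and no cell type can be resolved.

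Genes for tRNAs are transcribed by RNA polymerase III from promoters that lie inside the gene. The general factor TFIIIC binds internal sequences called the A box and the B box, and places TFIIIB, which contains the TATA-binding protein, just upstream of the start. Transcription ends at a short run of T after the gene. The X of C. elegans is rich in tRNA genes, and many of them are copies with the same sequence, so copies can be compared that differ only in their surroundings.

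The sequences below are shown because they carry the comparisons that follow: the member with the highest signal, a neighbouring pair under 1 summit, and pairs of identical genes that differed in occupancy. Each runs 5′ to 3′ on the gene's strand, from 50 bp before the gene to 30 bp after it, and was read from the RefSeq sequence of assembly WBcel235. Capitals mark, in order, a match to the A box word TNGNNNAG in the first 20 bases of the gene, a match to the B box word GTTCNANNC, and the first run of at least 4 T after the gene.
C04A11.t1 (Leu, chrX:13665505-13665703, + strand): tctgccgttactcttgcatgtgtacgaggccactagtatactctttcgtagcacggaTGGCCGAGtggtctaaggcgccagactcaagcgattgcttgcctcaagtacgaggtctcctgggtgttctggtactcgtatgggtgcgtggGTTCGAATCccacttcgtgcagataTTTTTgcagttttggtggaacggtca
F15G9.t1 (Ala, chrX:9743539-9743690, + strand): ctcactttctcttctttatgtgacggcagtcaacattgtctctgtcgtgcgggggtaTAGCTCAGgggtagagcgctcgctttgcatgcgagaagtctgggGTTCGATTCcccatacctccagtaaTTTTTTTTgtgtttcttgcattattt
F15G9.t2 (Ala, chrX:9743697-9743848, + strand): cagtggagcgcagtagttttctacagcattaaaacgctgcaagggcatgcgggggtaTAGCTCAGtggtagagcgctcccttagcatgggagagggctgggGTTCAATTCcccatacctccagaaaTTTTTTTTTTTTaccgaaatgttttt
ZK899.t1 (Pro, chrX:9467699-9467850, - strand): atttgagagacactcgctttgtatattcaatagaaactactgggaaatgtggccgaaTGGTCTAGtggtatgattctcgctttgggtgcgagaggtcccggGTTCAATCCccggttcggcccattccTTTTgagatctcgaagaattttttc
Y7A5A.t2 (Pro, chrX:15796805-15796956, + strand): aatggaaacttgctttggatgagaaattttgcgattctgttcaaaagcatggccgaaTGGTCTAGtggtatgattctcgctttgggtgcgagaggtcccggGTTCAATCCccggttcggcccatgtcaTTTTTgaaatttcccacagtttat
C02B4.t2 (Tyr, chrX:12665178-12665341, + strand): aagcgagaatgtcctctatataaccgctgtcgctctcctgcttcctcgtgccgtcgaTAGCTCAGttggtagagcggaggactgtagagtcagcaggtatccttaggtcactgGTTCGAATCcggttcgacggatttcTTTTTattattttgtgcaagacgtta
R11.t4 (Tyr, chrX:16208233-16208396, - strand): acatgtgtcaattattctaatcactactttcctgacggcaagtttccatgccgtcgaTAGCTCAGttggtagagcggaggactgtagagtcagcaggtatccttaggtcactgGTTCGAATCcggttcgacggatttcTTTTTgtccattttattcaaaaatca
R11.t4 was added to this set after the values had been seen.

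The T run and the looser of the 2 B box words were found in nearly all members. The looser word GTTCNANNC, searched on the gene's strand, was present in 268 of 276 X genes (97.1%) and in 319 of 336 autosomal genes (94.9%), against 1.34% of 72 bp tiles of the X on 1 strand and 2.64% on either strand. The stricter word GTTCGANNC, every match of which also matches the looser word, was present in 200 X genes (72.5%) and 241 autosomal genes (71.7%), against 0.254% of these tiles on 1 strand; a thresholded region was found at 28.0% of X genes with it and 25% of those without it. The A box word TNGNNNAG was present in the first 20 bases of 206 X genes (74.6%) and 253 autosomal genes (75.3%), against 4.02% of 20 bp tiles of the X on 1 strand and 7.84% on either. A run TTTT followed within 30 bp of 273 X genes (98.9%) and 332 autosomal genes (98.8%), where 34.8% of 30 bp tiles of the X hold it on 1 strand. Among the X genes with a thresholded region the looser B box word was present in 72 of 75 (96.0%) and the A box word in 59 of 75 (78.7%).

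A called region was found at most X tRNA genes, and a stringent one at 75 of them. The strictest list holds the regions that passed the irreproducible discovery rate (IDR) procedure, which compares the ranking of regions between replicates. Its 416 nuclear regions are called thresholded below. Relaxed lists, which mix peaks with background, exist for the pooled replicates and for each replicate. The lowest thresholded X gene, C52G5.t1 at 95.4, ranked 415 in both the thresholded and the pooled list. No X gene with a higher pooled signal was left out. At X genes, thresholded therefore amounts to a cut on pooled signal, and it does not show agreement of the replicates region by region. A gene was counted when a region's summit, its point of highest signal, lay inside the gene or within 250 bp of it. Its score was the highest signal among such regions, in the units of the authors' peak caller, which rank regions within 1 list and are not read counts. By this rule 75 of the 276 X genes (27.2%, exact 95% interval 22.0 to 32.8) had a thresholded region, against 68 of 336 autosomal genes (20.2%, interval 16.1 to 24.9) and 23.4% of all nuclear tRNA genes. The intervals overlap, and they cover counting error only, because neighbouring genes can share a summit. The X was not at the top among the chromosomes: chromosome III had 18 of 64 genes (28.1%), and chromosome V had 12 of 78 (15.4%). For comparison, 1.04% of protein-coding genes had a thresholded summit within 500 bp of their start.

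Below the threshold the X and the autosomes were close. A pooled relaxed region without a thresholded one was found at 98 X genes (35.5%) and 124 autosomal genes (36.9%). With the thresholded genes included, 173 X genes (62.7%, interval 56.7 to 68.4) had a pooled relaxed region. The autosomal count was then 192 (57.1%, interval 51.7 to 62.5), and the share of all nuclear tRNA genes 59.6%. A relaxed region in both replicates was found at 129 X genes (46.7%) and 145 autosomal genes (43.2%), against 44.8% of all. No list held a region at 91 X genes (33.0%) and at 112 autosomal genes (33.3%). The remaining 12 X genes had a region in a replicate's list but not in the pooled list, as did 32 autosomal genes. Relaxed regions are common everywhere: the bases within 250 bp of a pooled summit made up 12.5% of the X and 13.8% of the autosomes, whereas those within 250 bp of a thresholded summit made up 0.252% and 0.188%.

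The X genes with a thresholded region had signals from 95.4 to 426, with a median of 175, and the autosomal ones had a median of 134. Signals above 200 were seen at 26 X genes (9.42%, interval 6.25 to 13.5) and 14 autosomal genes (4.17%, interval 2.30 to 6.89). Thresholded regions away from tRNA genes had a median signal of 116 on the X (23 regions) and 131 on the autosomes (255 regions). Of the 92 thresholded regions on the X, 69 lay at a tRNA gene, 8 of them within 250 bp of more than 1 gene. Counted at its nearest tRNA gene only, a thresholded summit was found at 67 X genes; the 8 genes that then lose their call include F15G9.t2, M02F4.t2 and C16B8.t3, described below. No test was made of any of these differences.

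The 20 highest members coded for many amino acids. C04A11.t1, a leucine tRNA gene with 2 exons at chrX:13665555-13665673, between protein-coding genes, had the highest signal: 253.7 in replicate 1 and 168.7 in replicate 2, and 426.3 in the pooled and thresholded lists. No other nuclear tRNA gene has its sequence. F15G9.t1 and F15G9.t2, alanine tRNA genes 87 bp apart in an intron of him-4 and on its strand, shared 1 summit, with 205.5 in replicate 1, 122.5 in replicate 2 and 327.9 pooled. That summit lay inside F15G9.t1, 63 bp from its 5′ end, so the signal cannot be assigned to F15G9.t2. The lysine gene C33G3.t2 followed, with 187.4 in replicate 1, 118.6 in replicate 2 and 305.9 pooled.

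Next in order were an isoleucine, a lysine, an asparagine and a valine gene. C42D8.t1 (Ile) had 151.7 in replicate 1, 140.9 in replicate 2 and 287.7 pooled. W03G11.t1 (Lys) had 166.1 in replicate 1, 117.9 in replicate 2 and 286.5 pooled. F41D9.t3 (Asn), in an intron of sulp-3 on the other strand, had 155.5 in replicate 1, 122.7 in replicate 2 and 278.7 pooled. These 3 genes lie at least 4725 bp from another tRNA gene. R04D3.t2 (Val), with a neighbour at 924 bp, had 178.4 in replicate 1, 98.8 in replicate 2 and 274.0 pooled. M02F4.t2 (Glu) and M02F4.t1 (Gly) stand on opposite strands 117 bp apart and shared a summit between them, with 169.5 in replicate 1, 101.0 in replicate 2 and 270.1 pooled. It lay 20 bp upstream of M02F4.t1, the nearer gene, and cannot be assigned to M02F4.t2. The other 10 of the top 20 had pooled signals from 226.6 to 270.0; they were F17H10.t1 (Gly), C28G1.t1 (Glu), F28H6.t1 (Arg), C06G1.t1 (His), C02B4.t2 (Tyr), F38G1.t2 (Asp), ZK899.t1 (Pro), F52H2.t2 (Asn), T07H6.t2 (Ala) and C16B8.t2 (Pro). The last of these is tied at 226.6 with C16B8.t3 (Pro), which shares its region and stands later on the chromosome.

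Just inside the threshold was C52G5.t1 (Val) with a pooled signal of 95.4, and just outside were the methionine genes C25F6.t1 and C25F6.t2, which share a region of 94.7. That region had 49.3 in replicate 1; in replicate 2, of this pair, C25F6.t2 alone had a region, of 60.2. The next below were F09B9.t2 (Arg) at 92.1, F41D9.t2 (Arg) at 89.4 and F55G7.t2 (Thr) at 87.7.

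Where both replicates had a region, they ranked the members alike. Across these 129 X genes, the log2 signals had a Pearson correlation of 0.85 and a Spearman correlation of 0.87, against 0.80 and 0.78 across 145 autosomal genes. Another 43 X genes (15.6%) and 72 autosomal genes (21.4%) had a region in 1 replicate only and do not enter these values. K02A4.t1 (Ser), for example, had 120.3 in replicate 2 and no region counted in replicate 1 or in the pooled list. It was picked after its values were seen. The replicate 2 region is shared with K02A4.t2 (Ala), 264 bp away, which had 107.9 in replicate 1 and 224.7 pooled. The thresholded summit at K02A4.t2 lay too far from K02A4.t1 to be counted there. A call in 1 replicate only at K02A4.t1 therefore does not show that replicate 1 lacked the region. The correlations describe genes that share 2 libraries and 1 control, and genes are not replicates.

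**Figure D1:**
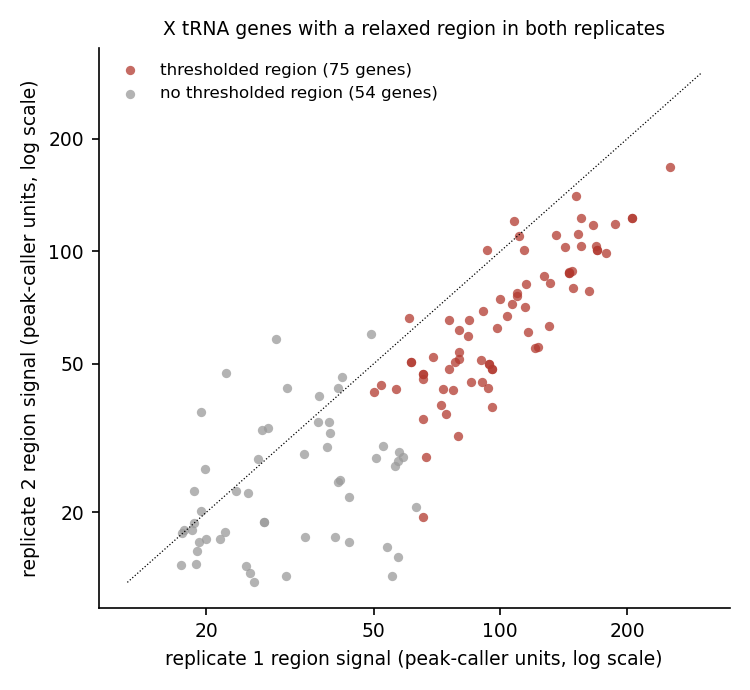
Signal of the highest relaxed region at each X tRNA gene in replicate 1 (horizontal) and replicate 2 (vertical), both in peak-caller units on log axes, for the 129 genes with a region in both. Thresholded genes are red and the others grey; the dotted line marks equal values, and signals of the 2 lists are on scales of their own. The genes run along 1 band (Spearman correlation 0.87). The thresholded genes are at its upper end, where their high signal in the pool of both replicates places them.

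Most summits of thresholded regions lay in the gene body. Measured along the gene's strand, the 69 thresholded summits at X genes had a median position 33.0 bp from the 5′ end (quartiles 6.0 and 51.0), where the median gene is 72.0 bp long. Of these, 45 were inside the gene (65.2%, interval 52.8 to 76.3), 15 upstream and 9 downstream. At autosomal genes the median was 39.0 bp, with 59.4% inside. The 220 pooled relaxed summits at X genes had 35.5% inside, 30.5% upstream and 34.1% downstream. In 56 of the 69 regions the summit is the midpoint of a region of 490 bp, so positions were not assigned to the A box or the B box. Taking instead the top 416 regions by signal from replicate 1 alone, the median was 17.5 bp, and from replicate 2 alone 30 bp.

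**Figure D2:**
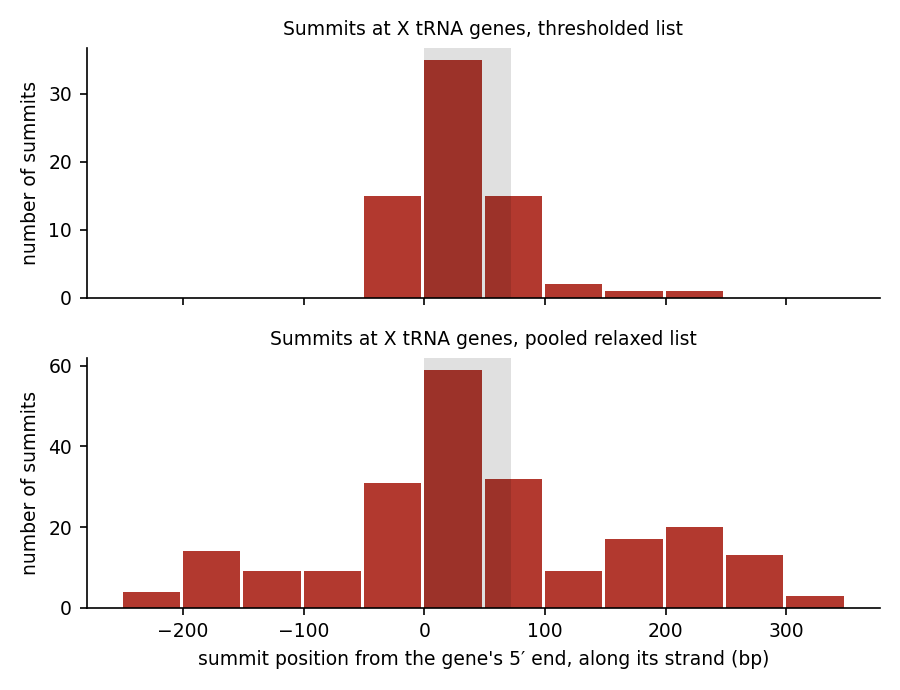
Number of region summits (vertical) by position in bp from the 5′ end of the nearest X tRNA gene along its strand (horizontal, bins of 50 bp), for the thresholded list above and the pooled relaxed list below; grey shading marks a gene of 72 bp. Thresholded summits are concentrated on the gene (median 33.0 bp). Pooled relaxed summits are also most frequent there, with 59 of 220 in the bin from 0 to 50 bp, but more of them lie elsewhere in the window.

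By amino acid, the X genes with a thresholded region ranged from 7 of 13 alanine genes (53.8%, interval 25.1 to 80.8) to 1 of 9 histidine genes (11.1%, interval 0.281 to 48.2). With each summit counted at its nearest gene only, alanine had 6 of 13 (46.2%) and phenylalanine, at 3 of 6 (50%), was above it. All 20 standard amino acids had at least 1 such X gene. The X share was above the autosomal share for 12 amino acids and below it for 8. Glycine had 7 of 20 genes on the X (35.0%) and 1 of 35 on the autosomes (2.86%), and tyrosine had 3 of 8 on the X and 0 of 11 on the autosomes (interval up to 28.5%). In the other direction, cysteine had 2 of 7 on the X and 4 of 6 on the autosomes, and arginine had 7 of 27 on the X (25.9%) and 8 of 17 on the autosomes (47.1%). Had each amino acid's X genes been called at the autosomal rate, 63.1 of the 273 X genes with a known amino acid (23.1%) would carry a region, against the 75 observed (27.5%). The amino acid is not annotated for 3 X genes, and none of them had a region.

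**Figure D3:**
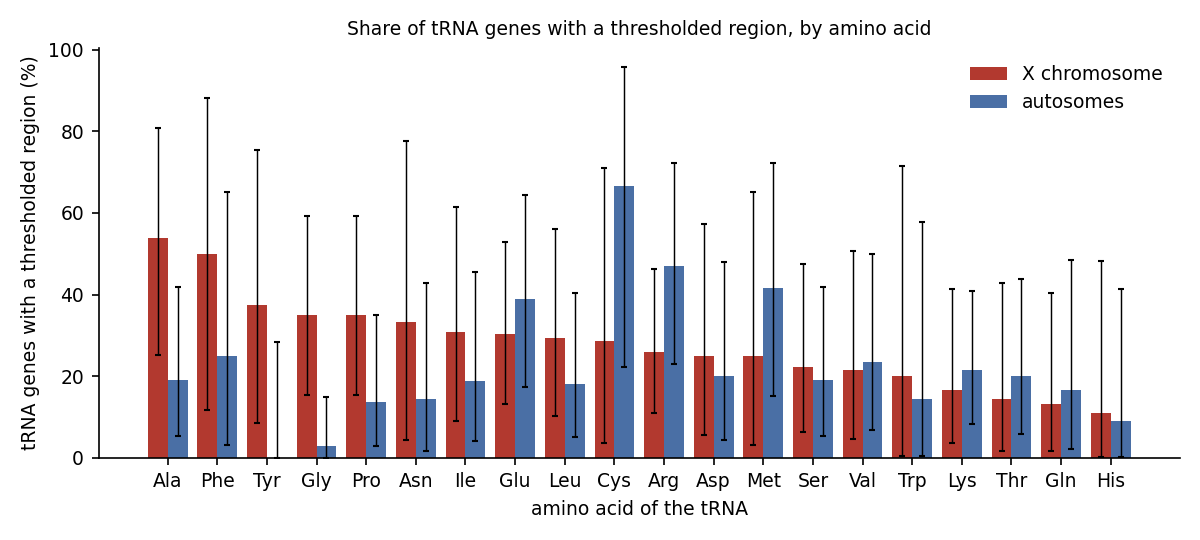
Percentage of tRNA genes with a thresholded region (vertical) by amino acid (horizontal, in falling order of the X share), for the X in red and the autosomes in blue, with exact 95% intervals as bars. Alanine (53.8%) and phenylalanine (50%) are at the upper end on the X, in an order that turns round when each summit is counted at its nearest gene only, and histidine (11.1%) is at the lower end; the intervals are wide because most amino acids have under 30 genes.

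Copies with identical sequence did not share 1 level of signal. The 276 X genes have 106 distinct sequences, of which 33 occur at least 2 times on the X and cover 203 genes. In 28 of these 33 families, with 189 genes, some X copies had a thresholded region and others did not; 1 family had a region at every copy and 4 had none. With each summit counted at its nearest gene only, 27 families were mixed, 1 had a region at every copy and 5 had none. Over all X genes 27.2% were thresholded, and at such a share families of several copies can be mixed whatever their sequence. The number of mixed families expected from that share was not computed. The count is therefore not read as a trait of identical copies. The proline family of 13 X copies had 4 thresholded. Its highest copy, ZK899.t1, had 148.0 in replicate 1, 88.7 in replicate 2 and 234.8 pooled, while Y7A5A.t2 had no region in any list. The gene bodies of this pair are the same, as the sequences above show, and the 50 bp before them have the same GC content of 34%. ZK899.t1 lies 93288 bp from the next tRNA gene, and Y7A5A.t2 lies 161 bp from its own neighbour. Y7A5A.t2 is 1 of several copies without a pooled region. Another copy, F46G11.t2, lies 190 bp from its neighbour and was thresholded at 109.8. The pair does not show a part of spacing, which was not tested.

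The other large families showed the same spread. The glutamate family of 12 X copies had 3 thresholded, 2 of them through a summit nearer to another gene (M02F4.t2 at 270.1 and rte-5 at 111.0). Its copy with a summit of its own, rte-1, had 89.9 in replicate 1, 51.3 in replicate 2 and 137.9 pooled, and F52E10.t3 had no region. The glycine family of 11 had 3, from 270.1 at M02F4.t1 to none at T10B10.t1. The lysine family of 10 had 1, W03G11.t1 at 286.5, and no region at F39B1.t2. The aspartate family of 10 had 3, from 248.1 at F38G1.t2 to none at C06G1.t2.

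Genes known from classical genetics showed it as well. The tryptophan tRNA genes sup-7, sup-21, sup-28 and sup-33, in which suppressor mutations of stop codons were isolated, have the same sequence. Only sup-7 was thresholded, with 106.4 in replicate 1, 72.5 in replicate 2 and 179.5 pooled. Pooled signals were 59.1 at sup-28 and 41.6 at sup-21, and sup-33 had no region. Tyrosine genes with 2 exons gave another case: C02B4.t2, in an intron of nhr-17, had 135.5 in replicate 1, 110.6 in replicate 2 and 252.8 pooled, and its identical copy R11.t4 had no region. In the same array as R11.t4, the identical R11.t1 had 193.4 pooled. Families present on both kinds of chromosome had regions at 59 of 185 X copies (31.9%) and 52 of 223 autosomal copies (23.3%).

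**Figure D4:**
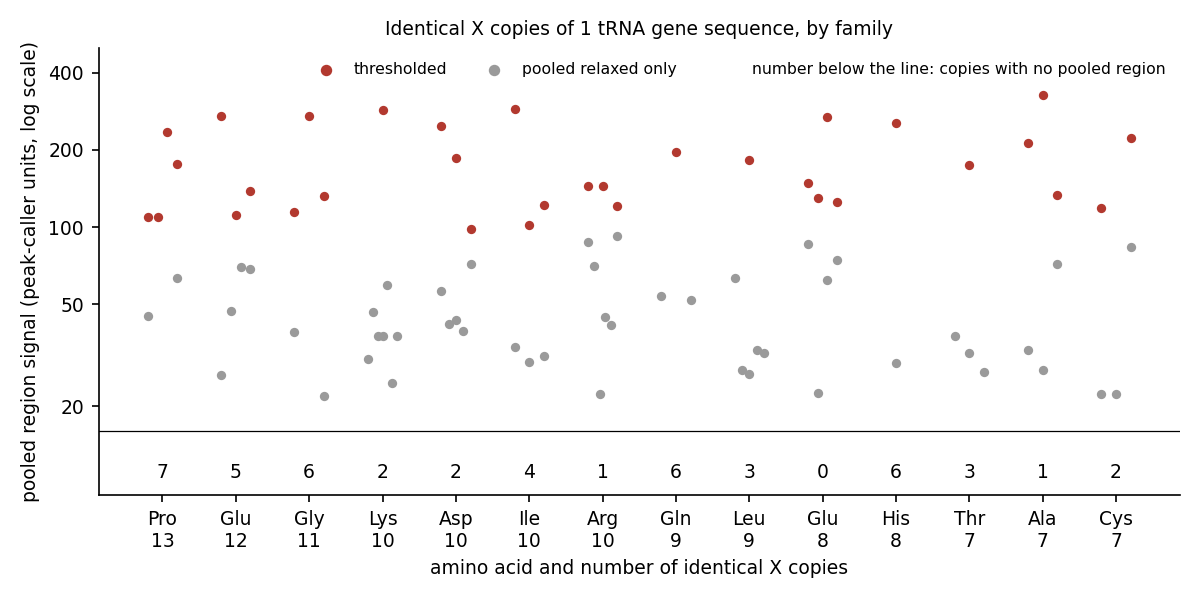
Pooled signal in peak-caller units (vertical, log axis) of each X copy in the 14 families with at least 7 identical X copies, labelled by amino acid and number of copies (horizontal); red copies are thresholded, grey ones are in the pooled relaxed list only, and the digit under the line counts copies with no pooled region. Each family holds copies at high and at low signal, as in the proline family, where 4 of 13 were thresholded and 7 had no pooled region.

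Identical copies bear on how well reads can be placed. Of the windows of 32 bases that overlap a member and its flanks of 100 bp, a median of 78.1% occur once in the genome, whereas in the gene body alone the median is 0.0%. How long the reads were, and what was done with reads matching more than 1 place, is not given in the sources used here. Thresholded X genes had a median of 77.8% unique windows and X genes without any region 78.4%. Where all windows were unique, 0 of 3 X genes and 0 of 14 autosomal genes were thresholded. X genes with no other copy of their sequence were thresholded at 10 of 57 (17.5%), and the other X genes at 65 of 219 (29.7%). Under 50% of windows were unique at 10 X genes; all 10 have a tRNA gene within 1000 bp, 0 were thresholded and 3 had a pooled region. An array of 6 histidine genes at chrX:14135045-14137010 had a median of 21.4% and 1 weak pooled region, of 29.6. Of the 91 X genes with no region, 84 had at least 50% unique windows. The part of read placement in these results was not tested.

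Spacing went with occupancy among X genes, a pattern noticed after the values had been seen. Genes at least 1000 bp from any other tRNA gene, called isolated here, had a thresholded region at 52 of 141 (36.9%, interval 28.9 to 45.4), against 23 of 135 clustered genes (17.0%, interval 11.1 to 24.5). The shares were 23.8% of isolated and 11.9% of clustered genes on the autosomes, where fewer genes are clustered (48.9% on the X, 30.1% on the autosomes). The rise with distance was not even: the X share was 18.5% below 200 bp, 22.0% from 200 to 500 bp, 6.90% from 500 to 1000 bp, 20.5% from 1000 to 5000 bp, 43.8% from 5000 to 20000 bp and 44.6% beyond. In the same classes the autosomal shares were 18.2%, 11.1%, 5.13%, 28.9%, 13.6% and 25.3%, with the highest value from 1000 to 5000 bp and no higher one beyond. Within the 24 families with both kinds of X copy, 33 of 83 isolated copies (39.8%) and 15 of 91 clustered copies (16.5%) were thresholded; the isolated share was higher in 16 families, lower in 6 and equal in 2. With each summit counted at its nearest gene only, clustered X genes had a region at 15 of 135 (11.1%) and isolated ones still at 52 of 141. Counted by locus, with clustered genes joined, 67 of 195 X loci (34.4%) and 64 of 281 autosomal loci (22.8%) had a region. X loci of 1 gene had it at 36.9%, of 2 genes at 28.2% and of 3 or more at 26.7%, so that with each locus counted once the gap between isolated and clustered X genes was 9.1 percentage points, against 19.8 by gene.

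Base composition before the gene also went with occupancy, again as a pattern seen in these data. The 50 bp upstream had a median GC of 46.0% at thresholded X genes and 38.0% at the other X genes. On the autosomes the medians were 48.0% at thresholded genes and 44.0% at the others. The X gap of 8.0 percentage points was 3.3 over the 30 bp and 4.0 over the 200 bp upstream. The 50 bp downstream had a median of 26.0% in both X groups, and the gene itself 58.3% in both. By upstream GC, the thresholded share of X genes was 7.59% (6 of 79) up to 34%, 18.8% (13 of 69) from 36 to 40%, 43.5% (30 of 69) from 42 to 46% and 44.1% (26 of 59) from 48%. In the same bins the autosomal shares were 6.90%, 12.7%, 23.5% and 27.7%. Across the 173 X genes with a pooled region, signal and upstream GC had a Spearman correlation of 0.32, and signal and downstream GC one of 0.01. Across 192 autosomal genes the values were 0.21 upstream and 0.13 downstream, and the downstream medians were 30% at thresholded and 26.0% at other autosomal genes, a gap like that upstream. The effect of base composition on sequencing yield was not tested.

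The 2 patterns were combined at the median upstream GC of X genes, 40%. Isolated X genes above it had a thresholded region at 41 of 81 (50.6%, interval 39.3 to 61.9) and those at or below it at 11 of 60 (18.3%, interval 9.52 to 30.4). Clustered X genes above it had a region at 15 of 47 (31.9%, interval 19.1 to 47.1) and those at or below it at 8 of 88 (9.09%, interval 4.01 to 17.1). At the same cut, isolated autosomal genes had a region at 31.4% above and 9.76% at or below it. Clustered autosomal genes had one at 12.9% above and 10.3% at or below it. On the autosomes, clustered genes thus differed little by GC, and genes at or below the cut little by spacing. C02B4.t2 and R11.t4, the tyrosine pair shown above, had 52% and 38% upstream; ZK899.t1 and Y7A5A.t2 had 34% each.

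**Figure D5:**
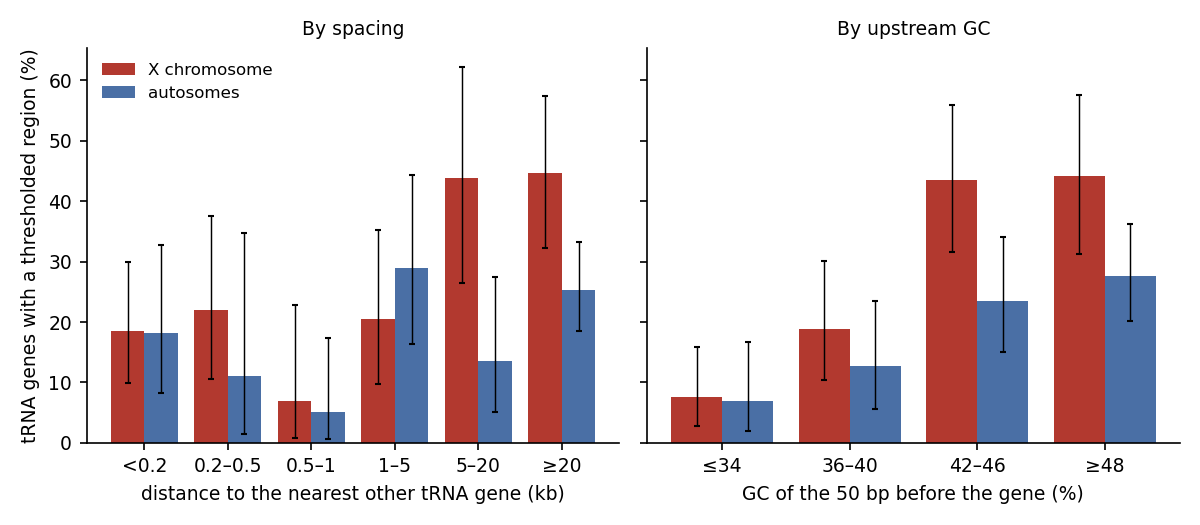
Percentage of tRNA genes with a thresholded region (vertical, shared axis) by distance in kb to the nearest other tRNA gene (left panel) and by GC of the 50 bp before the gene (right panel), X in red and autosomes in blue, with exact 95% intervals as bars. The X share is 44.6% in the most distant class and 18.5% in the closest, and 44.1% in the highest GC class and 7.59% in the lowest.

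Place, chromosome part and exon number were counted in the same way. Between protein-coding genes lie 180 X genes (65.2%) and 139 autosomal genes (41.4%). Thresholded regions were found at 27.8% of these X genes. X genes inside a protein-coding gene had them at 28.9% on the other strand and at 23.5% on the same strand. The autosomal shares in these 3 places were 22.3%, 17.9% and 19.8%. Of 96 X genes inside a protein-coding gene, 95 lie in introns, overlapping no annotated exon of a protein-coding transcript, and C28G1.t1 overlaps an exon. With the X divided into 3 parts of equal length, the left part had regions at 22 of 51 genes (43.1%, interval 29.3 to 57.8), the middle part at 22 of 107 (20.6%) and the right part at 31 of 118 (26.3%). With each autosome divided in the same way, the shares were 22.5%, 25.5% and 15.1%. Genes with 2 exons had them at 5 of 12 on the X (41.7%, interval 15.2 to 72.3) and 2 of 17 on the autosomes (11.8%), against 26.5% of X genes and 20.7% of autosomal genes with 1 exon. X genes whose sequence also occurs on an autosome had them at 31.9%, and X genes without such a copy at 17.6% (16 of 91).

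The protein partners of tRNA genes were examined from lists of genes. Of 20 genes for RNA polymerase III subunits and its factors, 1 had a thresholded summit within 500 bp of its start, against 1.04% of protein-coding genes: rpac-19, which encodes a subunit shared by polymerases I and III, with a signal of 131.4 at 125 bp. Relaxed pooled regions lay at 9 of the 20, where 32.2% of all protein-coding genes have one within 500 bp of the start. Of 20 matched genes for cytosolic aminoacyl-tRNA synthetases, which charge tRNAs, 0 had a thresholded region and 8 a pooled one, and of 6 genes for tRNA processing and export the counts were 0 and 3.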

How the data were processed

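Region lists in narrowPeak format on assembly ce11, which equals WBcel235 in its chromosome lengths, were used as deposited. The signal of each region is the authors' peak-caller value per the file headers and deposited lists; it ranked regions within 1 list only. The −log10 q values are the authors' too, as deposited, and no result rests on them. Per the deposited notes, relaxed regions were called in either replicate and in both pooled, against a shared control, and an IDR procedure gave the thresholded list. For the aligner, the caller, their versions and the IDR limit, the setting is not given in the sources used here, and read depth is unknown, so intervals (exact Clopper-Pearson, 95%) cover counting error only.

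Nuclear regions numbered 416 in the thresholded list, 29978 in the pooled list, 25383 in replicate 1 and 22887 in replicate 2. Genes came from the Ensembl annotation (release 115), and amino acids and exons from RefSeq through the WormBase gene ID, found for 607 of the 612 genes. Summits were taken 1-based and assigned within 250 bp. Isolated genes lie at least 1000 bp from another tRNA gene. No p-value was computed: there is 1 group of 2 replicates. Named genes are the 20 X genes of highest thresholded signal, the highest in each amino acid, the 5 highest below the threshold, the highest and lowest copy in 5 of the largest families, and pathway genes with a thresholded region. Isoleucine and arginine families, tied at 10 X copies with the lysine and aspartate families, were not taken. The lowest copy named is 1 of several in its family without a pooled region. Other genes were chosen after their values were seen. The members and lists were chosen with earlier results of these data known. Scoring was tested on simulated data. Alternatives were other reaches around the gene, a stricter list of 208 regions, and the 416 regions of highest signal in each replicate. Python 3.11.15, pandas 2.3.3, numpy 2.4.6, scipy 1.17.1 and matplotlib 3.10.9 were used. The lists on ce10 were not used.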

Additional observations from a re-analysis of the deposited data

How the results depend on the processing

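The counts of X genes stayed within 1.5 times of the reported ones under every reach tried (summit within 100 or 500 bp, nearest tRNA gene only, overlap of region and gene) and without either replicate. Thresholded X genes numbered 68 to 73 without 1 of the replicates, when the 416 regions of highest signal in the other were used; 61 of the 75 were called in both. The stricter list of 208 regions left 45 distinct regions at X genes, against 69. The X minus autosome difference of 6.9 percentage points was 8.5 at 500 bp, 5.2 with the nearest gene only and 6.8 to 8.0 without 1 replicate. The median summit position was 17.5 to 30 bp without 1 replicate, against 33.0. Unique windows had a median of 84.8% at 50 bases and 0.0% in the gene body alone. Alternatives for spacing and upstream GC were chosen after seeing the data. The isolated minus clustered difference of 19.8 percentage points was 12 with a limit of 500 bp, 26.5 with 5000 bp, 9.1 with each locus counted once, 23.5 at 100 bp reach, 25.8 with the nearest gene only and 13.4 to 18.4 without 1 replicate. The upstream GC difference of 8.0 points was 3.3 over 30 bp, 4.0 over 200 bp, 6.0 among isolated and 6.0 among clustered genes, and 8.0 without either replicate. The causes were not tested. No paired analysis was possible because there is 1 group. Unknown read depth, read length and treatment of reads from identical copies limit what absence of a region shows.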
